A study of Mus musculus with 10 samples.

Results

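Ribosome biogenesis and nucleolar genes were followed in the metanephric mesenchyme of mouse embryos, a tissue that lies around the branching ureteric bud and from which nephrons form. The group was set by name, with earlier results of these data known, as 40 genes that transcribe, modify and assemble ribosomal RNA. Probe sets annotated to exactly 1 gene symbol were available for 38 of them, out of 18193 genes measured, and each gene was represented by its brightest probe set. Npm3 and Mrto4 had no such probe set in the annotation used and are not analysed here.

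Kidneys were taken at E11.5 from litters of Wnt9b+/- intercrosses, and trypsin and pancreatin were used to strip the mesenchyme from the bud. Of 10 Affymetrix arrays, 5 were hybridised with Wnt9b-/- mesenchyme (mutant) and 5 with mesenchyme of Wnt9b+/+ littermates (wild type), each array from its own pool of 25 to 30 mesenchymes and 1 µg of total RNA. The sample labels give the controls as Wnt9b+/+, whereas the series' design text gives them as Wnt9b+/-; the sample labels were followed. The mutation removes Wnt9b, a Wnt ligand of the ureteric bud, from the whole embryo, and the allele is not described further in the labels. The comparison asks which transcripts of the mesenchyme differ without that ligand.

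Ribosomes are built in the nucleolus, where RNA polymerase I copies the ribosomal DNA into a long precursor RNA. Small nucleolar ribonucleoproteins (RNPs) guide the chemical modification of that precursor, and assembly factors fold, cut and package it with ribosomal proteins into the small and the large subunit. Many of these genes are known targets of the Myc family of transcription factors, which couple ribosome production to growth, and Myc proteins bind the sequence CACGTG, called an E-box.

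That E-box was searched for in the RefSeq promoters of the group (build GRCm38.p6, a window of 250 bases before to 50 bases after the gene's start), because it is the textbook contact of Myc proteins with these genes. The motif reads the same on both strands. The E-box occurred in 5 of the 33 listed genes that had a promoter entry (15.2%) and in 8.09% of all 27025 genes with an entry. Of 2 further palindromes, the NRF1 motif occurred in 0 of the 33 and in 1.07% of all genes, and the BANP motif in 0 and 0.525%. Both are so rare in this window that their absence from 33 genes is uninformative. The 5 occurrences are shown with up to 12 bases on either side, 5′ to 3′ on the gene's strand, the E-box in capitals.
Nop2: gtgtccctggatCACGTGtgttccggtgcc
Pes1: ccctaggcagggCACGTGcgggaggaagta
Utp20: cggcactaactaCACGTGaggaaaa
Utp4: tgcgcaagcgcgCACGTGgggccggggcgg
Wdr43: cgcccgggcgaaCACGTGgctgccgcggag
The Nop2 stretch lies at chr6:125131811-125131840 on the plus strand, with its E-box 60 bases before the start. The other E-boxes lie just after the start, in Pes1 (chr11:3963965-3963994, plus), Utp20 (chr10:88826765-88826789, minus), Utp4 (chr8:106893643-106893672, plus) and Wdr43 (chr17:71616220-71616249, plus). A match describes these letters only and says nothing about binding, and the window leaves out E-boxes further into the gene.

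All 38 measured genes had a lower mean signal in the mutant. Signals were taken as log2(signal + 1), for short log2 signal, and each difference is the mutant mean minus the wild-type mean. Their median was -0.20, a decrease of 13.2%, against +0.02 over all 18193 genes, of which 45.1% were lower in the mutant. Among the 9093 genes whose mean log2 signal lay in the same range as that of the group (7.07 to 13.52), 45.7% were lower, with a median of +0.01. Genes read on the same arrays are not independent observations. Since the group was chosen with earlier results of these data known, its counts and medians describe it and test nothing. The differences were small, from -0.66 for Nop58 to -0.02 for Npm1, with standard errors (SE) of 0.10 to 0.35.

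No member was called singly. With limma and Benjamini-Hochberg adjustment over all genes, 0 of 38 passed an adjusted p of 0.05, and the smallest adjusted p was 0.790, for Gnl3. Across all genes 0.0055% were called, a single gene. At an unadjusted p under 0.05, 8 of 38 members (21.1%) were lower and 0 were higher, against 5.49% of all genes, 2.08% lower and 3.41% higher, and 1.81% lower in the same signal range. The 8 were Gnl3, Nolc1, Ddx21, Gar1, Polr1b, Ddx18, Fbl and Nhp2. Their number depended on single arrays. It was 2 without mutant replicate 4 or without wild-type replicate 4, 4 without mutant replicate 1, 5 without wild-type replicate 2, and 6 to 11 without any other array. Shares of all genes in those fits are not given here.

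**Figure D1:**
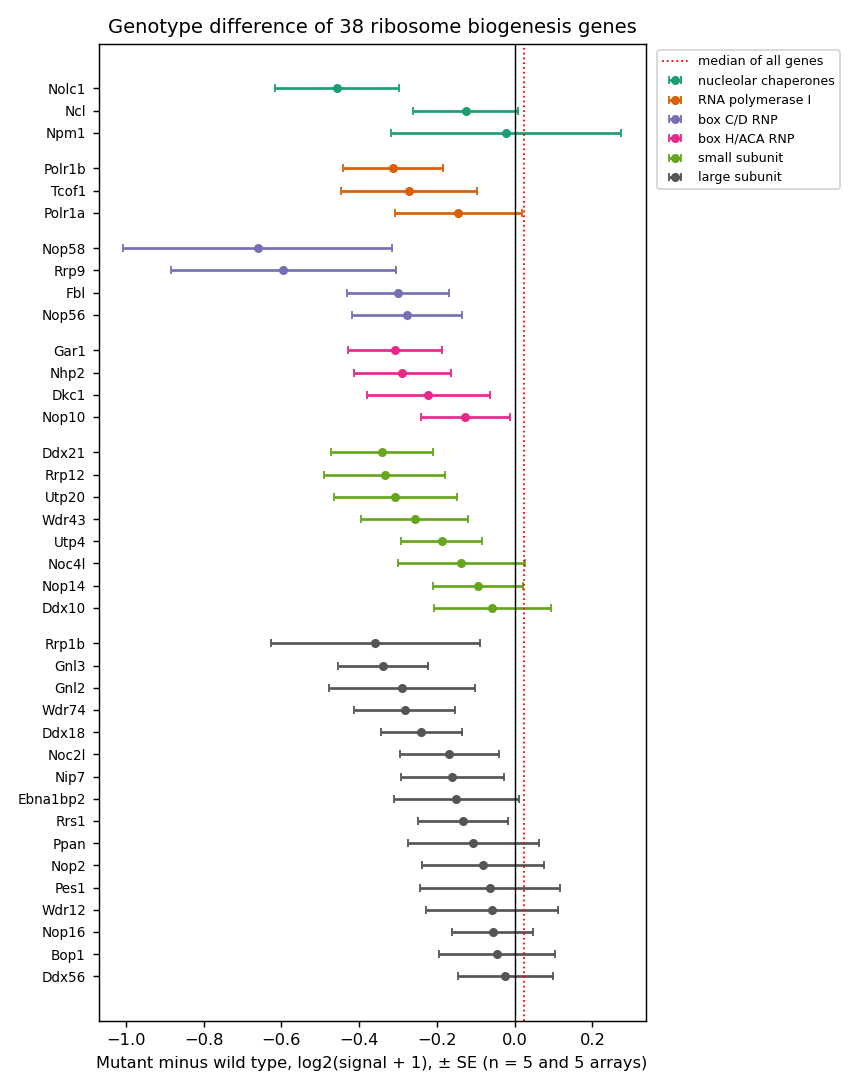
Genotype difference of each of the 38 measured genes, mutant minus wild type in log2(signal + 1), with bars for ± SE from the limma fit over 5 and 5 arrays; colours mark the role of the gene and the dotted line the median of all genes (+0.02). Every point lies left of 0, from -0.66 for Nop58 to -0.02 for Npm1, while some of the bars cross 0.

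The mean log2 signal of the 38 genes was 9.64, 9.74, 9.79, 9.70 and 9.71 in wild-type replicates 1 to 5. In mutant replicates 1 to 5 it was 9.44, 9.60, 9.53, 9.39 and 9.52. Every mutant array lay below every wild-type array, the closest being 9.60 against 9.64, and the group means were 9.72 ± 0.05 (SD, n = 5) and 9.50 ± 0.08 (SD, n = 5). After quantile normalization all 38 genes were again lower (46.7% of all genes), and the arrays were again apart (mutant at most 9.58, wild type at least 9.64). They overlapped when each array was centred on its median, where wild-type replicates 1 (9.53) and 4 (9.64) lay below mutant replicate 2 (9.67). Wild-type replicate 1 also lay below mutant replicate 5 (9.56). In that scaling the difference between the group means was -0.24.

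Genes for nucleolar chaperones, which carry and organise pre-ribosomal particles, had 3 of 3 members lower (median -0.13). Nolc1, a chaperone of small nucleolar RNPs, had log2 signals of 9.98, 9.997, 9.99, 10.28 and 9.89 in wild-type replicates 1 to 5 and of 9.54, 10.06, 9.43, 9.25 and 9.57 in the mutant ones. All mutant arrays but replicate 2 were below the lowest wild-type array. The Nolc1 difference was -0.46 (SE 0.16, limma adjusted p = 0.793). Averaged over its 3 probe sets the difference was -0.26. Ncl, which encodes nucleolin, an abundant RNA-binding protein of the nucleolus, had 12.26, 12.20, 12.68, 12.35 and 12.40 in wild type and 12.26, 12.49, 12.21, 11.96 and 12.33 in the mutant. Its groups overlapped widely, with a difference of -0.13 (SE 0.14). Npm1, which encodes nucleophosmin, a histone and ribosome chaperone, had 13.20, 13.25, 14.45, 13.28 and 13.50 in wild type and 13.61, 14.23, 12.93, 13.31 and 13.48 in the mutant. Wild-type replicate 3 and mutant replicate 2 stood high in it, and the difference of -0.02 (SE 0.30) turned to +0.21 without wild-type replicate 3.

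RNA polymerase I genes were lower in 3 of 3 members (median -0.27). Polr1b, the second-largest subunit of the enzyme, had 8.51, 8.97, 8.44, 8.82 and 8.52 in wild type and 8.28, 8.49, 8.25, 8.32 and 8.34 in the mutant. Only mutant replicate 2 reached above the lowest wild-type array, and the difference was -0.31 (SE 0.13, limma adjusted p = 0.880). Polr1a, the largest subunit, had 8.92, 8.48, 8.41, 8.72 and 8.47 in wild type and 8.66, 8.0, 8.72, 8.42 and 8.47 in the mutant. These groups overlapped, with a difference of -0.14 (SE 0.16), and its 4 dimmer probe sets were at +0.04, +0.35, -0.64 and -0.05. Tcof1, the treacle protein that supports transcription of ribosomal DNA, was at -0.27 (SE 0.17), and its dimmer probe sets were at -0.05 and -0.05.

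Box C/D RNPs, which methylate ribose in the precursor RNA, were lower in 4 of 4 members (median -0.45) and included the 2 largest differences. Fbl, the methyltransferase fibrillarin, had 11.64, 11.98, 11.98, 11.90 and 11.70 in wild type and 11.69, 11.56, 11.75, 11.26 and 11.44 in the mutant. In each group 3 arrays lay outside the range of the other group, and the difference was -0.30 (SE 0.13, limma adjusted p = 0.890). The other probe set of Fbl was almost as bright (mean log2 signal 11.57 against 11.69) and was at -0.13. Nop58 and Nop56 encode the paired core proteins of the same particle. They were at -0.66 (SE 0.35) and -0.28 (SE 0.14), and without mutant replicate 2 Nop58 was at -0.37. Rrp9, a protein of the particle that guides early cuts, was at -0.59 (SE 0.29). The arrays varied most in Nop58, whose log2 signals ran from 7.98 to 9.84 in the mutant and from 9.04 to 10.17 in wild type.

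Box H/ACA RNPs, which turn uridine into pseudouridine, had all 4 core proteins lower (median -0.26). Gar1 was the single member whose groups did not overlap, as in 0.555% of all genes in that direction and 0.704% of those in the same signal range. It had 10.71, 10.73, 10.43, 10.63 and 10.46 in wild type and 10.41, 10.14, 10.42, 10.05 and 10.39 in the mutant. The highest mutant and the lowest wild-type array almost met, and the difference was -0.31 (SE 0.12, limma adjusted p = 0.880). Nhp2 was at -0.29 (SE 0.13), the pseudouridine synthase Dkc1 at -0.22 (SE 0.16) and Nop10 at -0.13 (SE 0.12).

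Small-subunit assembly factors were lower in 8 of 8 members (median -0.22). Ddx21, an RNA helicase of the nucleolus, had 9.80, 9.44, 9.70, 9.78 and 9.49 in wild type and 9.07, 9.53, 9.45, 9.17 and 9.27 in the mutant. Mutant replicates 2 and 3 reached the lower wild-type arrays, and the difference was -0.34 (SE 0.13, limma adjusted p = 0.862). Rrp12, an export factor of pre-ribosomes, was at -0.33, Utp20 at -0.31, Wdr43 at -0.26 and Utp4 at -0.19. These last 3 are parts of the processome that first packages the precursor. Noc4l was at -0.14, Nop14 at -0.09 and the helicase Ddx10 at -0.06, each within 1 SE of 0.

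Large-subunit factors were lower in 16 of 16 members (median -0.14). Gnl3, a nucleolar GTP-binding protein also called nucleostemin, had 10.28, 10.23, 10.55, 10.30 and 10.39 in wild type and 10.08, 10.24, 9.96, 9.81 and 9.97 in the mutant. Mutant replicate 2 was level with the lowest wild-type array, and the difference was -0.34 (SE 0.12, limma adjusted p = 0.790). Rrp1b was at -0.36 (SE 0.27), Gnl2 at -0.29 (SE 0.19), Wdr74 at -0.28 (SE 0.13) and the helicase Ddx18 at -0.24 (SE 0.10). Bop1, Pes1 and Wdr12, which form a complex needed for large-subunit maturation, were at -0.05, -0.06 and -0.06, all with SE of 0.15 to 0.18. The Wdr12 difference was +0.12 with the mean of its 3 probe sets and +0.16 within the low-18S arrays defined below, where those of Bop1 and Pes1 were +0.06 and -0.01. Noc2l was at -0.17, Nip7 at -0.16, Ebna1bp2 at -0.15, Rrs1 at -0.13 and Ppan at -0.11. The RNA methyltransferase Nop2 was at -0.08, Nop16 at -0.06 and the helicase Ddx56 at -0.02.

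**Figure D2:**
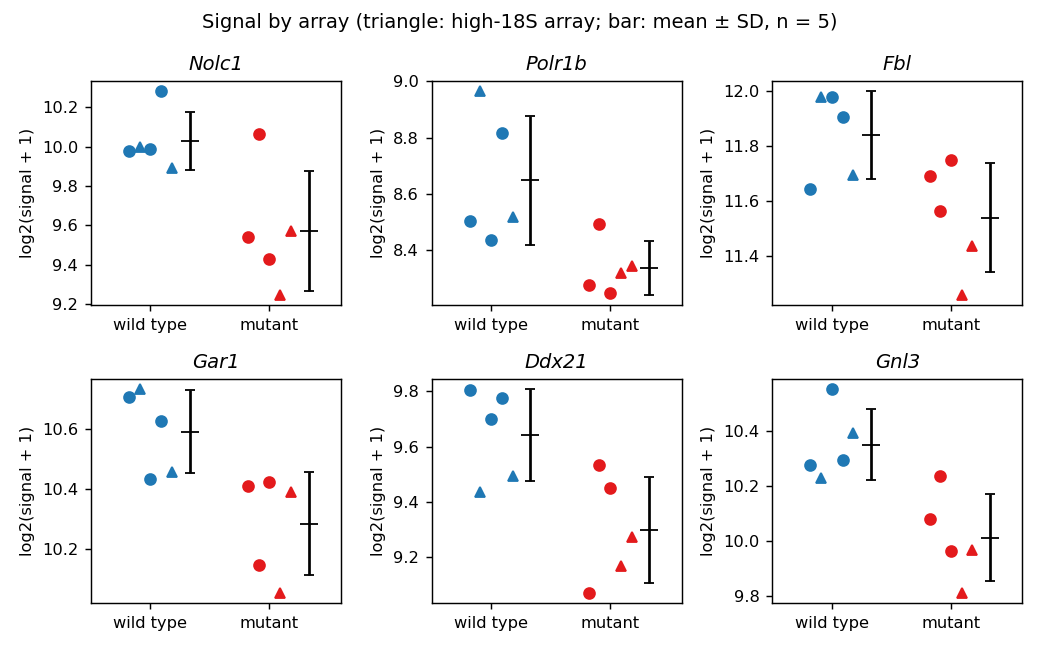
Log2(signal + 1) in each array for the member with the smallest p of each of 6 roles; points are arrays, triangles the high-18S arrays, and bars the mean ± SD of 5 arrays. Gar1 has no overlap between the genotypes (wild type from 10.43, mutant up to 10.42), and in Nolc1, Polr1b and Gnl3 only mutant replicate 2 reaches the wild-type range.

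Other probe sets of the same genes were mostly lower as well. The 38 genes had 41 further probe sets, of which 33 were lower in the mutant, with a median of -0.15. Over all single-symbol probe sets 47.6% were lower. Of the brightest probe sets of members, 7 carry a suffix (_s_at or _x_at) that the array's maker gives to probes matching several transcripts, those of Fbl, Nop56, Gar1, Nhp2, Noc4l, Wdr43 and Rrs1, so their signal may include other genes.

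Beyond the group, 79 other subunit assembly factors were also mostly lower. Of these 64 (81.0%) were lower, against 45.1% of all genes, with a median of -0.14. At an unadjusted p under 0.05, 4 (5.06%) were lower, against 2.08% of all genes, and 0 were called with limma. Utp18, a processome protein, had the smallest p among them, with 9.49 ± 0.10 (SD, n = 5) as its wild-type mean and 9.14 ± 0.07 (SD, n = 5) as its mutant mean, a difference of -0.35 (SE 0.09, limma adjusted p = 0.552). Tsr1, which matures the small subunit, was at -0.33 (SE 0.10). In both genes the genotypes did not overlap, as in 0.555% of all genes in that direction. Both were named for having the smallest p of the small-subunit list. In the large-subunit list Mdn1, a remodelling ATPase, was at -0.30 and Nol8 at -0.29. Mean log2 signals of these 79 genes just touched between genotypes, with mutant replicate 3 and wild-type replicate 1 both at 9.15. Other RNA polymerase I genes were lower in 9 of 12 measured members (median -0.08), with Polr1e at -0.28 and Mybbp1a at -0.19. RNA exosome genes, which trim the precursor's ends, were lower in 8 of 14 (median -0.05), with Exosc8 at -0.27 and Dis3 at -0.20.

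Ribosomal protein genes were divided in direction. Of 44 measured, 17 were lower and 27 higher in the mutant (median +0.01), 0 passed with limma, and 0 had an unadjusted p under 0.05. Of the 79 listed, 35 had no single-symbol probe set. Among proteins of the large subunit the 2 with the smallest p were Rpl14 at -0.26 (SE 0.19) and Rpl12 at -0.18 (SE 0.15). Among those of the small subunit they were Rps16 at +0.25 (SE 0.28, a probe set with log2 signals of 1.08 to 2.55) and Rps25 at -0.06 (SE 0.10). The mean log2 signal of the 44 genes ran from 12.35 to 12.82, except for mutant replicate 2 at 13.15 and wild-type replicate 3 at 13.26. Whether assembly factors and ribosomal proteins differ in their response was not tested.

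**Figure D3:**
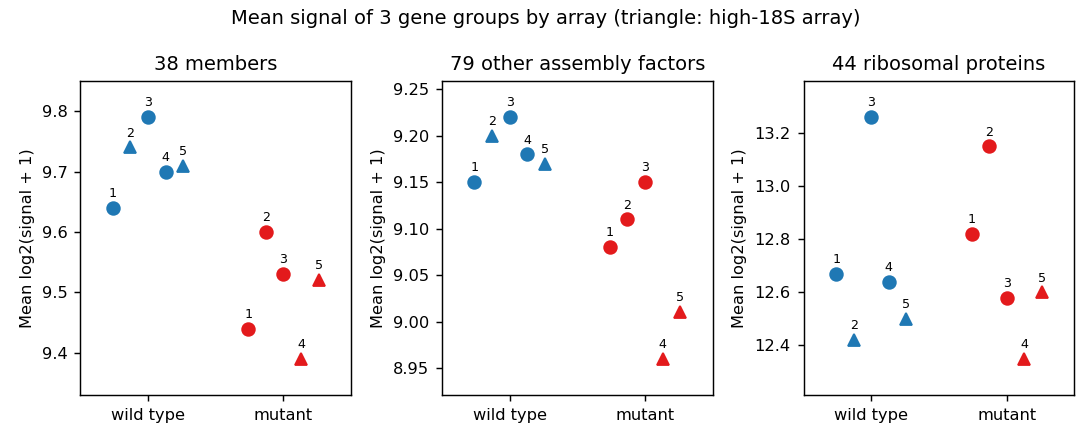
Mean log2(signal + 1) per array of the 38 members, 79 other subunit assembly factors and 44 ribosomal protein genes; each point is an array, labelled by replicate number, with triangles for the high-18S arrays and an axis of its own for each panel. Members lie at 9.39 to 9.60 in the mutant and 9.64 to 9.79 in wild type, while ribosomal proteins stand high in mutant replicate 2 and wild-type replicate 3.

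Myc and Mycn, transcription factors known to drive many of these genes, were lower in the mutant too. Any link between their signals and those of the members was not tested. Myc had 9.22, 9.20, 9.27, 8.90 and 9.23 in wild type and 8.69, 9.04, 8.71, 8.85 and 8.59 in the mutant, a difference of -0.39 (SE 0.12, limma adjusted p = 0.719). Mycn, the family member known for its role in embryonic kidney, had 9.05, 9.21, 9.25, 9.36 and 9.25 in wild type and 8.80, 9.05, 8.69, 8.91 and 8.88 in the mutant, a difference of -0.36 (SE 0.11, limma adjusted p = 0.678). The groups of Myc overlapped through mutant replicate 2 and wild-type replicate 4. Those of Mycn met without overlap at 9.05, and 0.555% of all genes did not overlap in that direction. Mycn had 2 dimmer probe sets, at -0.32 and +0.25, and the mean of all 3 gave -0.14. Among 11 measured genes of the Myc network 5 were lower (median +0.03), and of 18 other growth genes often placed under Myc 16 were lower (median -0.13), among them Tfrc, the transferrin receptor, at -0.28 and the translation factor Eif4e at -0.19. In these lists 0 genes were called by limma, and at an unadjusted p under 0.05 there were 2 lower (Myc and Mycn) and 1 higher. Over all genes 2.08% were lower and 3.41% higher at that p.

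**Figure D4:**
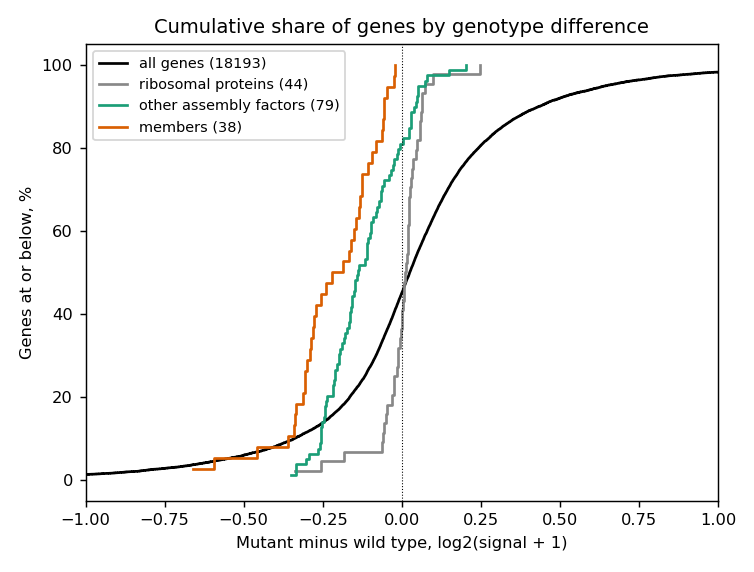
Cumulative share of genes (y, percent) at or below a given difference between mutant and wild type (x, log2(signal + 1), drawn from -1 to 1) for all genes, ribosomal proteins, other assembly factors and members. The curve of the members reaches 100% below 0, where that of all genes is at 45.1%, yet its lower end is no further left than that of all genes.

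Cell cycle genes were lower in 17 of 17 (median -0.14), against 45.1% of all genes. Among them Mcm2, a replication factor, was at -0.40 and Rrm2, a ribonucleotide reductase subunit, at -0.28. Genes known as targets of p53 had a median of +0.17 with 9 of 13 higher, but -0.05 without mutant replicate 2 and wild-type replicate 3. Within the high-18S arrays it was -0.07. In that list Trp53inp1 was at +0.27 and Eda2r at -0.37. In both lists 0 genes were called by limma (0.0055% of all genes were). At an unadjusted p under 0.05, 2 cell cycle genes (11.8%) were lower, against 2.08% of all genes, and 0 p53 targets passed.

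Markers of the cap mesenchyme, the nephron progenitors of this tissue, had wild-type mean log2 signals from 7.23 for Cited1 to 10.93 for Eya1. Six2 was at 10.45, Wt1 at 9.91 and Sall1 at 10.36. Stroma and bud markers gave signal too, among them Foxd1 at 11.18 and Krt18 at 9.19, and such levels do not rank cell types. Of 11 measured cap mesenchyme genes 9 were lower in the mutant, with summed signals of 4910 to 8557 against 8925 to 10674 in wild type. At an unadjusted p under 0.05, 7 were lower (2.08% of all genes). In a bulk sample fewer cells of a type and less RNA per cell cannot be told apart, and the part of this shift in the lower ribosome biogenesis signals was not tested. Stroma markers were higher in 6 of 8 (sums of 9963 to 14785 in the mutant and 10526 to 12321 in wild type), macrophage markers in 8 of 8 (1142 to 2483 and 1216 to 1833) and endothelial markers in 8 of 8 (2510 to 3298 and 2502 to 3239). Ureteric bud markers were higher in 6 of 11 (1269 to 3876 and 1880 to 3180), erythroid markers in 4 of 6 (28672 to 48291 and 26166 to 54656) and neural markers in 3 of 5 (590 to 920 and 463 to 670). At an unadjusted p under 0.05, 2 stroma markers (Tbx18 and Pdgfra), 2 neural ones (Stmn2 and Foxd3) and 1 of macrophages (C1qa) were higher (3.41% of all genes), and 0 of all these markers were called by limma. No marker was at 0 on any array; the dimmest was the bud gene Esrp1, with signals down to 3.46. Wnt9b itself had log2 signals of 6.31 to 6.65 in wild type and 5.42 to 6.74 in the mutant (difference -0.24, SE 0.24). The labels do not say whether these probes lie within the deleted sequence, so the signal is no check of genotype.

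The arrays also differ in a control for ribosomal RNA, the product whose making these genes serve. The probe set for the 5′ end of 18S rRNA read 1975 to 2587 on 4 arrays (high-18S: wild-type replicates 2 and 5, mutant replicates 4 and 5) and 92.4 to 322 on the other 6 (low-18S). The control for the middle of 18S read 330 to 840 and 113 to 369 in these sets, and that for the 3′ end 282 to 904 and 191 to 447, so the sets separate by the 5′ control alone. The genotypes are balanced over the sets, at 2 and 2 in the high-18S set and 3 and 3 in the other. The high-18S arrays are also those of 2 mutant and wild-type pairs that share wording in their titles. The 3′ minus 5′ log2 difference of the Gapdh control ran from -0.07 to 0.07 on the high-18S arrays and from -0.41 to -0.26 on the low-18S ones, apart from wild-type replicate 3 at 0.0033. The 18S control reads labelled cRNA and is no measure of ribosome content.

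Few members differed between the 18S sets. In a limma fit with terms for genotype and 18S set, 0 of 38 passed adjustment over all genes (0.0055% of all genes did), and the smallest adjusted p was 0.229. At an unadjusted p under 0.05 there was 1 member (2.63%), Pes1, lower in the high-18S arrays, against 14.1% of all genes, 8.03% lower and 6.06% higher, and 16.8% in the same signal range. Of the 38, 23 were lower and 15 higher in the high-18S arrays (median -0.07, and -0.05 for all genes, of which 55.7% were lower). Pes1, a large-subunit factor, had log2 signals of 9.12 and 9.21 in the high-18S wild-type arrays against 9.33, 9.74 and 9.53 in the others. In the mutant they were 8.87 and 9.17 against 9.37, 9.69 and 9.50, so within each genotype both high-18S arrays were lowest (difference -0.43, SE 0.12, limma adjusted p = 0.229). The largest positive difference was +0.62 (SE 0.31), in Nop58.

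By genotype and set, the mean log2 signal of the 38 genes was 9.39 and 9.52 in the high-18S mutant arrays and 9.44 to 9.60 in the low-18S ones. In wild type it was 9.71 and 9.74 against 9.64 to 9.79. Mutant replicate 4, with the highest signal of the 5′ 18S control, had the lowest mean of all arrays. On the middle and 3′ controls it was the lowest of the high-18S arrays, at 330 and 282. Wild-type replicate 2, also a high-18S array, had the second highest mean of the 38 genes. The median genotype difference of the members was negative in both sets. It was -0.27 with 36 of 38 lower within the high-18S arrays (all genes -0.01, 51.5% lower), and -0.18 with 33 of 38 lower within the low-18S arrays (all genes +0.05, 42.7% lower). Of the 38, 31 were lower within both sets, and 0 had an unadjusted limma p under 0.05 within either set. The same shares over all genes are not given for these counts, which therefore only describe the members. No interaction of genotype and set was called (0 of 38 by limma, smallest unadjusted p 0.0952; 3.46% of all genes had an unadjusted p under 0.05). Ribosomal proteins were lower in the high-18S arrays in 41 of 44 genes (median -0.44, 0 called, 15 lower and 1 higher at an unadjusted p under 0.05). Both arrays where ribosomal proteins stood high, mutant replicate 2 and wild-type replicate 3, are low-18S arrays, and without them the median was -0.22 with 40 of 44 lower. Over all arrays after quantile normalization it was +0.01, where the members' median was -0.07.

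**Figure D5:**
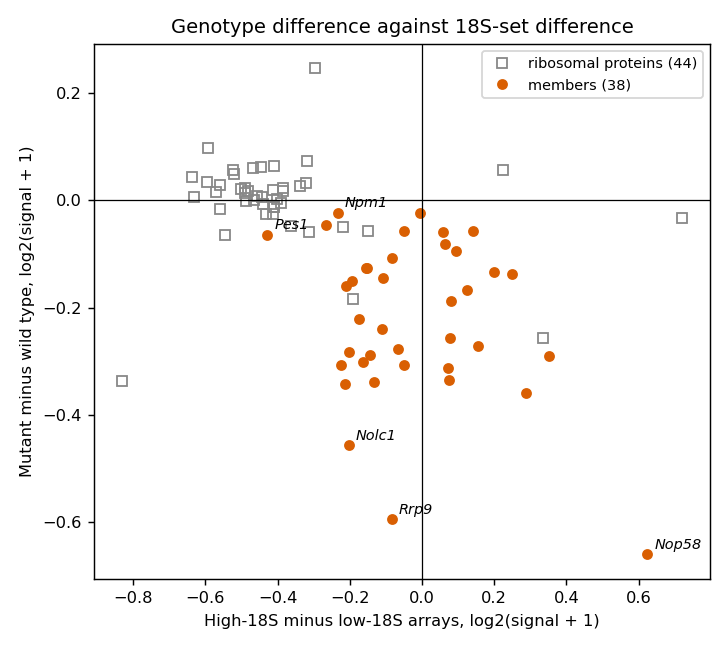
Difference between mutant and wild type (y) against the difference between high-18S and low-18S arrays (x), both in log2(signal + 1), for the 38 members and 44 ribosomal protein genes. Members lie below 0 on the y axis and on both sides of 0 on the x axis, while 41 of 44 ribosomal protein genes lie left of 0 on the x axis.

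The spiked hybridisation controls averaged a log2 signal of 11.87 on mutant replicate 2, of 11.48 on wild-type replicate 3, and of 9.79 to 10.87 on the others. These 2 arrays also had the largest excess of the 3′ over the 5′ control of Actb, a sign of RNA or labelling quality, at log2 differences of 0.93 and 0.94 against 0.39 to 0.71 elsewhere. The same difference of Gapdh did not set them apart together. It was -0.41 on mutant replicate 2, the lowest of all arrays, and 0.0033 on wild-type replicate 3. The part of these controls in the members' values was not tested. Of the 38 members, 19 were highest among mutant arrays in mutant replicate 2 and 15 highest among wild-type arrays in wild-type replicate 3. Wild-type replicate 2 was highest in 13, and wild-type replicate 3 was lowest of its group in 8. The same shares over all genes are not given here. In both mutant replicate 2 and wild-type replicate 3, Ncl, Npm1, Nop56, Dkc1, Nhp2, Wdr43, Pes1, Wdr74 and Gnl3 were highest. Polr1a, Nop58, Nop14, Rrp1b and Rrs1 were lowest in both of these arrays. Without these 2 arrays 36 of 38 members were lower in the mutant (median -0.22), against 47.7% of all genes.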

How the data were processed

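The authors deposited 1 table of probe-set intensities on a linear scale for 10 Affymetrix Mouse Genome 430 2.0 arrays, per the labels' protocols made from biotin-labelled cRNA. How probes were summarised is not stated there. Each array's mean after trimming 2% at each end was 250.0, so arrays had been scaled before deposit. Values were used as log2(signal + 1), without further normalization; such differences understate those of dim genes. Of 45101 probe sets, 64 controls were left out of tests, and 34945 had 1 gene symbol in the platform annotation. The brightest per gene gave 18193 genes. Levels were not compared between genes. Fits used limma 3.58.1 in R 4.3.3 (lmFit, eBayes), two-sided, with Benjamini-Hochberg adjustment over all genes. They were tried on simulated data with independent noise and planted differences larger than any of the members'. That trial therefore does not cover small differences or shifts shared by the genes of an array. Arrays were split into 18S sets at the largest gap in the 5′ control. Replicate numbers follow sample order and only name arrays. Members and lists were chosen with earlier results of these data known; lists are described by counts and medians. The rule for named genes took Ncl, Npm1, Fbl, Polr1a, called members, the smallest p of each role and, in the 18S fit, of the group for values in every array, all other members for their difference, and 2 genes of each pathway list with Myc and Mycn. Wnt9b was added as the targeted gene, and the ranges of Nop58 were chosen after its values were seen. The number of arrays limits the precision.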

Additional observations from a re-analysis of the deposited data

Results flagged for a closer look

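Within each genotype, the array farthest from the other 4 was compared with the range of the group for the members, the other genes named with values from the pathway lists, Wnt9b and the mean of the members, 120 groups of values in all. About 1 group in 20 would be marked by chance, which makes 6, and 3 were. In Npm1 wild-type replicate 3 was high, at a log2 signal of 14.45, where the remaining wild-type arrays ran from 13.20 to 13.50. Nolc1 reached 10.28 in wild-type replicate 4, the remaining ones lying between 9.89 and 9.997. Myc stood low there, at 8.90, the remaining wild-type arrays lying between 9.20 and 9.27.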

How the results depend on the processing

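In 23 other settings, 33 to 38 of the 38 members were lower in the mutant, with medians of -0.27 to -0.18, and no member was called by limma in any of them. Leaving out each array in turn gave 35 to 38 lower. The number lower at an unadjusted p under 0.05, 8 as reported, was 5 on averaging the probe sets of a gene, 13 with an intensity trend and robust moderation, 0 within the high-18S arrays, 0 within the low-18S arrays (4 and 6 arrays), and 2 to 11 on leaving out each array. The labels give no replicate numbers that pair the genotypes. A replicate block of 3 pairs of arrays whose titles share wording, fitted as a random effect, gave 14 and left the median at -0.20. Shares of all genes at that p in these settings are not given here. Changes in these counts are therefore not read as results about the members. The median of the members between the 18S sets was -0.15 within the mutant arrays and -6.79e-05 within the wild-type arrays. The counts of members lower and at an unadjusted p, and these fits within a genotype, were chosen after seeing the data. The cause of these shifts was not tested. Of 1438 gene values in other settings, 34 were turned to higher in the mutant, in 16 genes, and none was called. By another probe set they were Ncl 0.0042, Polr1a 0.036 and 0.35, Noc4l 0.24, Bop1 0.0090, Wdr12 0.73, Ebna1bp2 0.19, Ddx18 0.17 and Mycn 0.25, and with the mean of probe sets Wdr12 0.12. Within the low-18S arrays they were Nop2 0.027, Nop16 0.029, Bop1 0.058, Wdr12 0.16, Ddx56 0.085 and Wnt9b 0.11, and within the high-18S arrays Npm1 0.020 and Gnl2 0.030. Npm1 was at 0.0081 with array weights and 0.016 with the replicate block. Without mutant replicate 2 and wild-type replicate 3, brightest in hybridisation controls, Npm1 was at 0.027 and Wdr12 at 0.0054. Leaving out each array in turn gave ranges of -0.20 to 0.21 for Npm1, -0.12 to 0.047 for Ddx10, -0.16 to 0.038 for Bop1, -0.16 to 0.047 for Pes1, -0.17 to 0.018 for Wdr12 and -0.11 to 0.018 for Ddx56.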
